A study of Homo sapiens with 4 samples.

Results

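The genes described here encode RNA polymerase I, RNA polymerase III, the subunits they share with each other or with RNA polymerase II, and the factors that start, end or restrain their transcription. They are 43 named genes, found by symbol among 29286 listed Ensembl identifiers, and all 43 were matched. RNA was sequenced from HCT116, an established line of human colorectal carcinoma cells, in 4 libraries. The 2 shNC libraries came from cells infected with a control-hairpin lentivirus (shNC2 in the titles), and the 2 shWDR43 libraries from cells with a lentiviral hairpin against WDR43. All cells had 48 h of infection and then 3 days of puromycin, so the controls carried the vector and the selection too. The labels name no second WDR43 hairpin or rescue, and do not say whether a group's libraries are separate cultures. P-values therefore cover no more than the spread between these libraries. No value for WDR43 was analysed here, and the knockdown was therefore not checked against its target.

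RNA polymerase I transcribes the precursor of the large ribosomal RNAs in the nucleolus, and RNA polymerase III transcribes the 5S ribosomal RNA, the transfer RNAs and other short RNAs. UBTF and the promoter selectivity factor SL1 mark the ribosomal DNA promoter, and RRN3 brings the polymerase to it. TFIIIC and TFIIIB do the corresponding work for polymerase III, and MAF1 represses it when nutrients or growth signals are low. WDR43 is a nucleolar protein of the UTP-A subcomplex, which binds the nascent ribosomal RNA precursor, so the comparison asks whether mRNAs of the transcription machinery differed when WDR43 was targeted. All values below are mRNA levels, and neither polymerase activity nor ribosomal RNA was measured.

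Promoter sequence was examined because MYC, named in the title of the series, binds the E-box CACGTG. RefSeq windows on GRCh38.p14, from 250 bases before to 30 bases after the start site, were matched for 36 of 43 members. POLR1E, POLR2K, TCOF1, NOLC1, POLR3D, POLR3G and MAF1 had no entry. Searched on both strands, an E-box lay in 7 of the 36 windows (19.4%), against 6.97% of all 27303 windows. The 7 were POLR1G, POLR3A, POLR3C, POLR3E, GTF3C2, GTF3C4 and GTF3C6. The ETS-type motif CCGGAAGT lay in 10 windows (27.8%, against 4.27%) and the NRF1-type motif GCATGCGC in 3 (8.33%, against 3.14%). CCAAT lay in 12 (33.3%, against 34.6%) and TATAAA in 1, GTF3C3 (2.78%, against 11.8%). The 27303 comparison windows were not limited to genes expressed in these cells, while the members all were expressed. They are therefore no matched background, and enrichment was not tested. The 4 windows shown are those of a polymerase I subunit, 2 polymerase III subunits and a subunit shared by all the polymerases, and they carry these motifs close to the start site. Each is written 5′ to 3′ on the gene's strand, with E-box, ETS-type and NRF1-type matches in capitals.
POLR1G: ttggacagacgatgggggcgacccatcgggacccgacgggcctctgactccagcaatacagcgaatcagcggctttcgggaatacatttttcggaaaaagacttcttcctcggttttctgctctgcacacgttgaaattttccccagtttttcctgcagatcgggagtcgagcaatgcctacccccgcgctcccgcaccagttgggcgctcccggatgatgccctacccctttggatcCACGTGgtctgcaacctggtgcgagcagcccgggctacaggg
POLR3A: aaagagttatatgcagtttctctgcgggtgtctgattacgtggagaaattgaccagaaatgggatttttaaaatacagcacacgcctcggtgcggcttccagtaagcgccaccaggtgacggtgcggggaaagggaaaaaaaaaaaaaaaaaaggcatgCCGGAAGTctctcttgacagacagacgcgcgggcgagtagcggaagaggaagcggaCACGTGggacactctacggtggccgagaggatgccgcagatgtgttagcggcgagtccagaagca
POLR3E: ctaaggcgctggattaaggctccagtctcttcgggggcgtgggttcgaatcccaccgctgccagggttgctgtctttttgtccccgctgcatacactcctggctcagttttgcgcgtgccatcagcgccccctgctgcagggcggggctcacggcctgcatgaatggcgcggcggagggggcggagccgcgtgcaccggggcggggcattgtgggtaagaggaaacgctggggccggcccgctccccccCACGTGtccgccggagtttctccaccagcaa
POLR2F: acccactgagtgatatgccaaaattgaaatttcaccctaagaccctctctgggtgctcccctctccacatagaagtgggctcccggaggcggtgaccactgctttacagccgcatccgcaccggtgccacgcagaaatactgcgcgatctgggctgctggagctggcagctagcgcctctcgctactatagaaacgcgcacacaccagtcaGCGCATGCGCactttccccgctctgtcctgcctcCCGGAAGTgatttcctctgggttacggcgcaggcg
The POLR1G window is chr19:45406394-45406673, plus strand, with its E-box starting 12 bases before the start site. The POLR3A window is chr10:78029486-78029765, minus strand, with an ETS-type match 91 bases and an E-box 35 bases before the start site. In POLR3E (chr16:22297159-22297438, plus strand) the E-box spans the start site. POLR2F (chr22:37953413-37953692, plus strand) has overlapping NRF1-type matches on both strands, which start 39 and 37 bases before the start site. Its ETS-type match starts 5 bases before the start site and spans it. These are matches of letters, and no binding was measured.

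**Figure D1:**
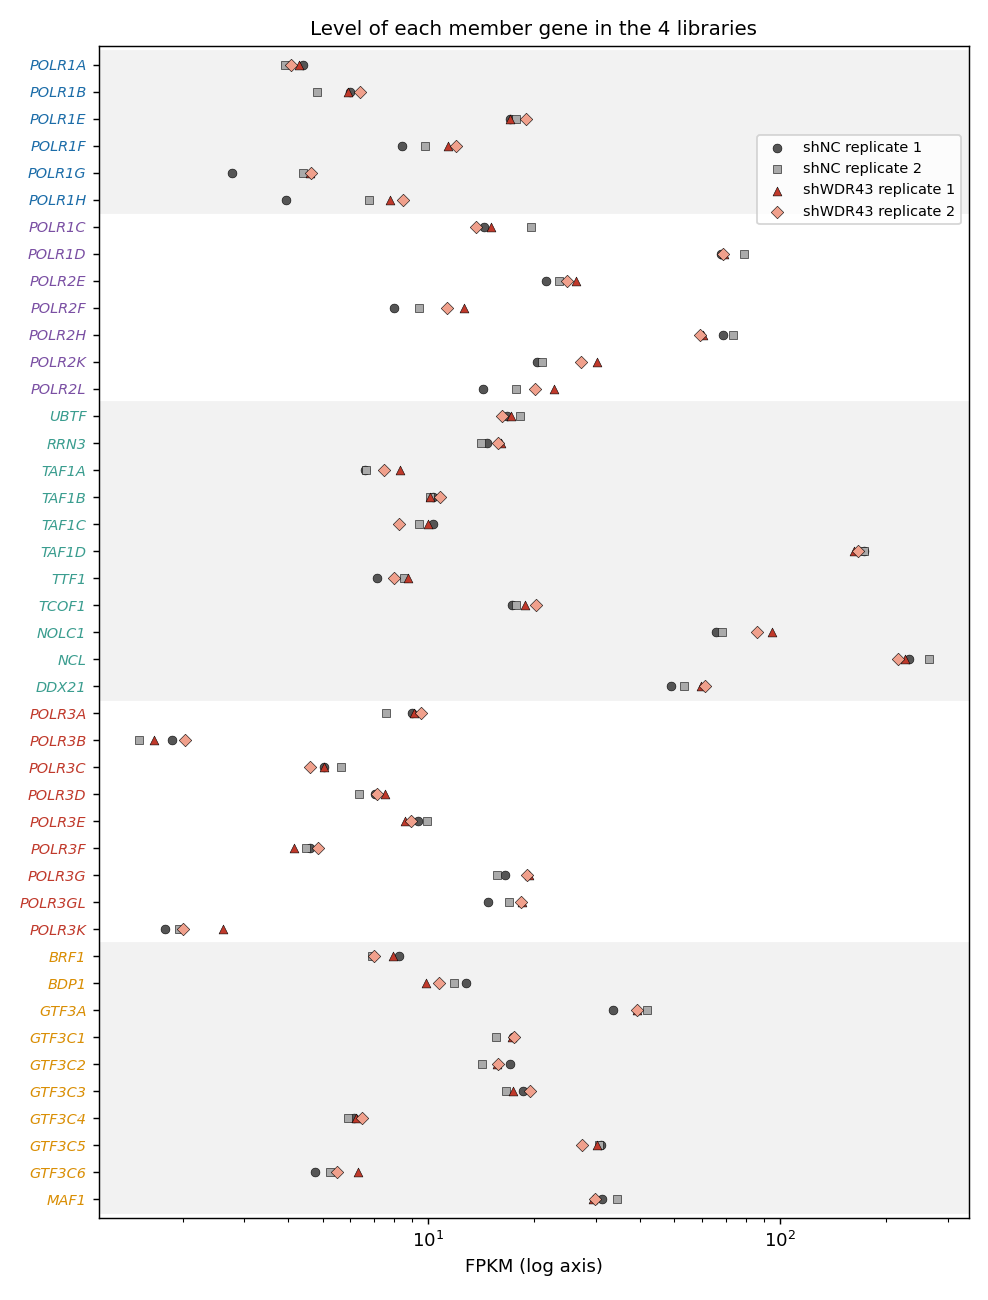
Level of each of the 43 member genes (FPKM, log axis) in the 2 shNC and 2 shWDR43 libraries, with gene names coloured by class. Levels spread from POLR3B and POLR3K, near 1.5 to 2.6 FPKM, to NCL, at 217 to 265 FPKM, and the 4 libraries of a gene lie close together beside that range.

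Few members of the machinery changed in the shWDR43 libraries. Of 43 members, 2 rose and 0 fell, POLR2K and NOLC1, each by less than 1.5-fold. In bulk RNA, fewer cells of a kind and less RNA per cell cannot be told apart. That is 4.65% of the members, against 6.26% of all 13303 tested genes called by limma at a Benjamini-Hochberg adjusted p below 0.05, computed on log2(FPKM + 1), of which 4.79% were higher and 1.47% lower. The share of members called was thus near that of all genes. FPKM counts fragments relative to transcript length and to all mapped fragments, and all 43 members passed the filter of 1 FPKM in at least 2 libraries. An unadjusted p below 0.05 was found for 10 members, 23.3% against 26.4% of all tested genes. In 26 members (60.5%) the groups did not overlap, 19 with shWDR43 higher and 7 with shWDR43 lower. The shares over all tested genes were 57.3%, 35.8% and 21.5%. The member differences ran from -0.24 to 0.56 on the log2(FPKM + 1) scale, with a median of 0.08 against 0.05 for all tested genes. The 95% interval of the difference lay within a 1.5-fold change on this scale for 37 members, 86.0% against 77.6% of all tested genes.

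The number of changed members depended on the library set, scaling, the filter and the replicate block. Without the filter, when 26938 genes were tested, and with the block it was 0. It was 9 risen without shNC replicate 2 (POLR1F, POLR1G, POLR1H, POLR2F, POLR2K, POLR2L, NOLC1, DDX21 and POLR3GL), when 19.8% of all tested genes were called. Without shNC replicate 1 it was 2 risen (POLR2K and NOLC1) and 3 fallen (POLR1C, POLR2H and NCL), with 13.6% called. It was 1 without shWDR43 replicate 1 (POLR1H) or without shWDR43 replicate 2 (POLR2K). Under median-ratio or upper-quartile scaling 0 members passed, and the split over all tested genes went from 637 higher and 196 lower to 295 and 221 or to 327 and 287. Those scalings moved the median of all tested genes from 0.05 to -0.0042 and to -0.01.

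**Figure D2:**
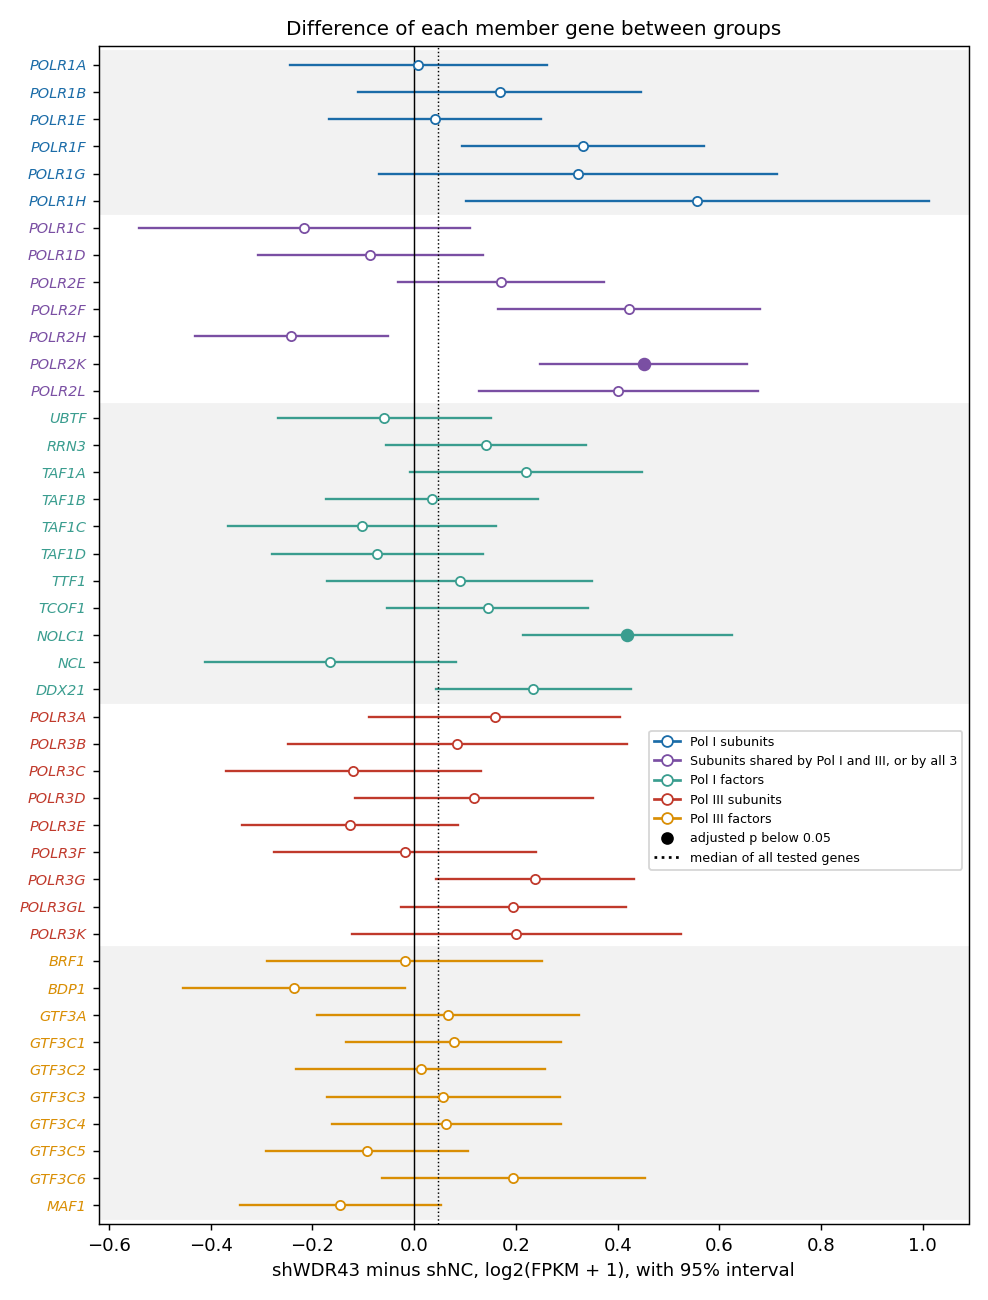
Difference between shWDR43 and shNC for each member on the log2(FPKM + 1) scale, with its pointwise 95% interval from limma. Filled points are the 2 genes at an adjusted p below 0.05, POLR2K and NOLC1, open points did not pass, and the dotted line is the median of all tested genes at 0.05.

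Among the subunits found only in polymerase I, 0 of 6 changed by limma, with 2 at an unadjusted p below 0.05. All 6 differences were positive, with a median of 0.24, beside 7720 positive among 13303 tested genes. Under median-ratio and upper-quartile scaling POLR1A (-0.0409 and -0.05) and POLR1E (-0.017 and -0.0275) were below 0. The groups overlapped for both catalytic subunits. POLR1A, the largest subunit, was at 4.40 and 3.92 in shNC and 4.29 and 4.07 FPKM in shWDR43. Its groups overlapped, with a log2 difference of 0.0075 and a 95% interval from -0.25 to 0.26. POLR1B, the second-largest subunit, was at 5.97 and 4.82 in shNC against 5.92 and 6.40 FPKM, and its groups overlapped as well (log2 difference 0.17, interval -0.11 to 0.45). Leaving out shNC replicate 1 gave a difference of 0.30, and leaving out shNC replicate 2 one of 0.04. POLR1E, which forms a heterodimer with POLR1G, was the most abundant of the 6. It was at 17.1 and 17.8 in shNC and 17.1 and 18.9 FPKM in shWDR43.

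The other 3, all smaller subunits, were higher in both shWDR43 libraries than in either shNC library, but none passed. Over all tested genes, 35.8% were higher in this way. POLR1F, in the stalk that contacts RRN3, was at 8.43 and 9.81 in shNC and 11.4 and 12.0 FPKM in shWDR43, with a log2 difference of 0.33 ± 0.10 (SE; limma adjusted p = 0.092). Without shNC replicate 2 it was 0.43 and passed (limma adjusted p = 0.0181), and without shNC replicate 1, shWDR43 replicate 1 or shWDR43 replicate 2 it did not (limma adjusted p = 0.125, 0.294 and 0.418). POLR1H, a subunit for cleavage of the nascent RNA, was at 3.93 and 6.78 against 7.77 and 8.45 FPKM. The shNC libraries differed more from each other than shNC replicate 2 did from either shWDR43 library. Its log2 difference of 0.56 had an interval from 0.10 to 1.012 (limma adjusted p = 0.124), and was 0.89 without shNC replicate 2 and 0.61 without shWDR43 replicate 1, both past the threshold (limma adjusted p = 0.0035 and 0.0377). It was 0.23 without shNC replicate 1 and 0.50 without shWDR43 replicate 2, neither past it (limma adjusted p = 0.168 and 0.109). POLR1G was at 2.77 and 4.40 in shNC and 4.62 and 4.65 FPKM in shWDR43 (log2 difference 0.32, limma adjusted p = 0.268), again with shNC replicate 1 apart. Its difference rested on that library, at 0.06 without it (limma adjusted p = 0.724) and 0.58 without shNC replicate 2, which passed (limma adjusted p = 0.0131), and without shWDR43 replicate 1 or 2 it did not pass (limma adjusted p = 0.462 and 0.454). POLR1G overlaps ERCC1 and PPP1R13L on the opposite strand, at means of 30.6 and 23.5 FPKM. The sources used here do not say whether counting used strand, so its level is uncertain. POLR1H overlaps an antisense pseudogene at 1.63 FPKM.

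The 7 shared subunits went in opposite directions, with 1 that rose and 0 that fell, beside 6.26% of all tested genes called. With 7 genes, this count is too small to be read against that share. POLR1C and POLR1D form the assembly platform of polymerases I and III, and the 5 subunits with POLR2 names are common to all the nuclear polymerases. POLR2K (chromosome 8, 100150584 to 100154002, plus strand, GENCODE release 29 on GRCh38) is a small zinc-binding subunit. It was at 20.3 and 21.0 in shNC and 30.2 and 27.2 FPKM in shWDR43, so that every shWDR43 value lay above every shNC value. The means went from 20.7 ± 0.479 to 28.7 ± 2.12 FPKM (SD, n = 2 per group), a ratio of 1.39. The log2 difference was 0.45 ± 0.09 (SE; limma adjusted p = 0.0334). Without shWDR43 replicate 1 it was 0.38 (limma adjusted p = 0.23), and under median-ratio and upper-quartile scaling 0.39 and 0.38 (limma adjusted p = 0.0562 and 0.0514). With the replicate number as a block its limma adjusted p was 0.0507, and without the filter 0.131.

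POLR2F and POLR2L, both small common subunits, were higher by a similar amount without passing. POLR2F was at 7.96 and 9.40 in shNC against 12.6 and 11.3 FPKM in shWDR43, with a log2 difference of 0.42 (interval 0.17 to 0.68, limma adjusted p = 0.0642). With the filter at 5 FPKM, which tests fewer genes, its limma adjusted p was 0.0466, and without shNC replicate 2 its difference was 0.53 (limma adjusted p = 0.0131). It did not pass without shNC replicate 1, shWDR43 replicate 1 or shWDR43 replicate 2 (limma adjusted p = 0.0784, 0.337 and 0.0801) or with the replicate block (limma adjusted p = 0.0843). POLR2L was at 14.3 and 17.7 against 22.7 and 20.1 FPKM, with a log2 difference of 0.40 (limma adjusted p = 0.0828), or 0.55 without shNC replicate 2, which passed (limma adjusted p = 0.00981). It was 0.26 without shNC replicate 1 (limma adjusted p = 0.107) and did not pass without shWDR43 replicate 1 or 2 (limma adjusted p = 0.365 and 0.0794). POLR2L overlaps CD151 on the opposite strand, at 54.7 FPKM, and its level is uncertain. POLR2E had 21.6 and 23.5 in shNC and 26.3 and 24.7 FPKM in shWDR43. In these 3 genes shWDR43 was higher and the groups did not overlap, which held for 35.8% of all tested genes.

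POLR2H, another common subunit, lay the other way. It was at 68.6 and 73.5 in shNC and 60.5 and 59.3 FPKM in shWDR43, with a log2 difference of -0.24 (interval -0.43 to -0.05, limma adjusted p = 0.113). Without shNC replicate 1 its difference was -0.29 and passed (limma adjusted p = 0.03), and without shNC replicate 2, shWDR43 replicate 1 or shWDR43 replicate 2 it did not (limma adjusted p = 0.0703, 0.543 and 0.588). The ratio of POLR2H to POLR2K in FPKM, a pair chosen after the values were seen, was 3.37 and 3.50 in shNC and 2.01 and 2.18 in shWDR43. POLR1D was at 67.8 and 78.8 in shNC and 69.1 and 68.6 FPKM in shWDR43, with overlapping groups. POLR1C was at 14.4 and 19.6 against 15.1 and 13.7 FPKM, and only shNC replicate 2 stood above the rest. Its log2 difference was -0.22 (limma adjusted p = 0.364) and -0.43 without shNC replicate 1, which passed (limma adjusted p = 0.0288). Without shNC replicate 2 it was -0.0068 (limma adjusted p = 0.966), and without shWDR43 replicate 1 or 2 it did not pass (limma adjusted p = 0.452 and 0.759). For comparison, of 7 subunits found only in polymerase II, 0 changed by limma, with 1 at an unadjusted p below 0.05 and a median difference of 0.09. POLR2G, a stalk subunit, had the smallest p of these, with 22.1 FPKM in both shNC libraries and 29 and 25.8 FPKM in shWDR43 (log2 difference 0.30, limma adjusted p = 0.087). POLR2C followed at 0.22, and at 0.34 without shNC replicate 2, which passed (limma adjusted p = 0.0279), but at 0.10 without shNC replicate 1 (limma adjusted p = 0.437).

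Of 7 initiation and termination factors of polymerase I, 0 changed by limma, 0 at an unadjusted p below 0.05, and the median difference was 0.03. UBTF, the architectural factor of ribosomal DNA, was at 16.7 and 18.2 in shNC and 17.2 and 16.2 FPKM in shWDR43. The groups overlapped, and the interval of its log2 difference ran from -0.27 to 0.15. RRN3 was at 14.7 and 14.1 in shNC and 16.1 and 15.8 FPKM in shWDR43, higher in both but by only 0.14 (interval -0.06 to 0.34). RRN3 has pseudogene copies that can share reads, listed at no more than 1.73 FPKM, and it overlaps PDXDC1 on the opposite strand, so its level is uncertain.

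The SL1 subunits had very unequal mRNA levels per length. TAF1D, whose introns host small nucleolar RNAs, was at 173 FPKM in both shNC libraries and at 162 and 166 FPKM in shWDR43. TAF1A was at 6.62 and 6.63 in shNC and 8.29 and 7.5 FPKM in shWDR43, the largest difference of the class at 0.22 (limma adjusted p = 0.201). TAF1B, with 10.3 and 10.1 against 10.1 and 10.8 FPKM, and TAF1C, with 10.3 and 9.40 against 10.0 and 8.23 FPKM, had overlapping groups. So did TTF1, the termination factor, at 7.13 and 8.55 in shNC and 8.76 and 8.01 FPKM in shWDR43.

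The 4 nucleolar factors of ribosomal DNA transcription differed among themselves, and 1 of them rose, beside 6.26% of all tested genes called. A class of 4 genes is too small to be read against that share. NOLC1 (chromosome 10, 102152176 to 102163871, plus strand) encodes a phosphoprotein found in the nucleolus and in Cajal bodies. It was at 65.8 and 68.5 in shNC and 94.8 and 85.7 FPKM in shWDR43, a gap wider than the spread within either group. The means were 67.2 ± 1.91 and 90.2 ± 6.47 FPKM (SD, n = 2 per group), a ratio of 1.34. The log2 difference was 0.42 ± 0.09 (SE; limma adjusted p = 0.0384). It was 0.35 without shWDR43 replicate 1 and 0.49 without shWDR43 replicate 2, with limma adjusted p = 0.346 and 0.103, and 0.36 and 0.35 under the median-ratio and upper-quartile scalings (limma adjusted p = 0.0689 and 0.0601). With the replicate block its limma adjusted p was 0.0726, and without the filter 0.132. No other listed gene overlaps NOLC1 or POLR2K in GENCODE release 29. POLR2K has a pseudogene copy, POLR2KP1, that can share reads and was listed at no more than 0.885 FPKM.

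TCOF1 encodes treacle, the partner of NOLC1 in a complex that links ribosomal DNA transcription to ribosome assembly. It was at 17.3 and 17.8 in shNC and 18.8 and 20.2 FPKM in shWDR43, and its log2 difference was 0.14 (interval -0.05 to 0.34). DDX21, a nucleolar RNA helicase, was at 49.1 and 53.2 against 59.4 and 61.2 FPKM (log2 difference 0.23, limma adjusted p = 0.124), and it passed without shNC replicate 2 at 0.29 (limma adjusted p = 0.0217) but not without shNC replicate 1, shWDR43 replicate 1 or shWDR43 replicate 2 (limma adjusted p = 0.109, 0.532 and 0.607). NCL, nucleolin, was the most abundant member, at 233 and 265 in shNC and 226 and 217 FPKM in shWDR43. Its log2 difference of -0.17 did not pass (limma adjusted p = 0.359), but -0.26 without shNC replicate 1 did (limma adjusted p = 0.0408). It was -0.07 without shNC replicate 2 (limma adjusted p = 0.452), and did not pass without shWDR43 replicate 1 or 2 (limma adjusted p = 0.787 and 0.863).

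Among the 9 subunits found only in polymerase III, 0 changed by limma, with 1 at an unadjusted p below 0.05, and differences ran from -0.13 to 0.24 with a median of 0.12. POLR3A, the catalytic large subunit, was at 8.99 and 7.59 in shNC and 9.13 and 9.55 FPKM in shWDR43 (log2 difference 0.16, interval -0.09 to 0.41). Leaving out shNC replicate 1 took this to 0.27, and leaving out shNC replicate 2 to 0.05. POLR3B, the partner of POLR3A in the catalytic core, was among the lowest members at 1.87 and 1.5 in shNC and 1.66 and 2.03 FPKM in shWDR43, with overlapping groups. Both catalytic genes of polymerase III, like those of polymerase I, thus had intervals that include 0. Unlike the other catalytic genes, POLR3A had groups that did not overlap, with shWDR43 higher, which held for 35.8% of all tested genes.

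POLR3G and POLR3GL encode alternative versions of one subunit of the initiation subcomplex, the first known mainly from stem and cancer cells and the second from differentiated tissues. POLR3G was at 16.5 and 15.7 in shNC and 19.3 and 19.1 FPKM in shWDR43, the largest difference of the class at 0.24 (interval 0.04 to 0.43, limma adjusted p = 0.124). POLR3GL was at 14.8 and 17.0 against 18.4 and 18.3 FPKM, with a log2 difference of 0.19 (limma adjusted p = 0.238) and 0.29 without shNC replicate 2, which passed (limma adjusted p = 0.0427). Without shNC replicate 1 it was 0.10 (limma adjusted p = 0.424), and without shWDR43 replicate 1 or 2 it did not pass (limma adjusted p = 0.681 and 0.639). Both were therefore present at like levels per length. Both were higher in each shWDR43 library than in each shNC library, which held for 35.8% of all tested genes. The ratio of POLR3G to POLR3GL was 1.11 and 0.923 in shNC and 1.05 and 1.04 in shWDR43, inside the range of the shNC pair.

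None of the other 5 polymerase III subunits passed, and their intervals all included 0. POLR3C, with POLR3F a partner of POLR3G in the initiation subcomplex, was at 5.06 and 5.64 in shNC and 5.06 and 4.62 FPKM in shWDR43. POLR3F was at 4.61 and 4.50 against 4.16 and 4.84 FPKM. The pair POLR3D and POLR3E, which acts in termination and reinitiation, lay on opposite sides of 0. POLR3D was at 7.04 and 6.35 in shNC and 7.55 and 7.12 FPKM in shWDR43, while POLR3E was at 9.34 and 9.90 FPKM and 8.56 and 8.90 FPKM. POLR3K, the RNA cleavage subunit, was at 1.78 and 1.95 against 2.61 and 2.00 FPKM, with shWDR43 replicate 1 alone well above the others. POLR3K overlaps SNRNP25 on the opposite strand, at 4.61 FPKM, so its level is uncertain.

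None of the 10 polymerase III factors changed by limma, with 1 at an unadjusted p below 0.05 and a median difference of 0.04. BDP1, the TFIIIB subunit that locks the complex on DNA, was at 12.8 and 11.8 in shNC and 9.84 and 10.7 FPKM in shWDR43. These values did not overlap, with shWDR43 lower, which held for 21.5% of all tested genes. The log2 difference of BDP1 was -0.24 (interval -0.46 to -0.02, limma adjusted p = 0.162). BRF1, the TFIIIB subunit that contacts the polymerase, was at 8.26 and 6.90 against 7.92 and 6.99 FPKM, with a log2 difference of -0.02. GTF3A, the factor specific to 5S ribosomal RNA genes, was at 33.4 and 41.8 FPKM in shNC, and both shWDR43 values, 39.1 and 39.3 FPKM, lay between these.

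TFIIIC, the complex of 6 subunits that reads the internal promoters of transfer RNA genes, had all 6 intervals of the difference within 1.5-fold. GTF3C1, its largest subunit, was at 17.4 and 15.6 in shNC and 17.3 and 17.5 FPKM in shWDR43. GTF3C2 and GTF3C3 had log2 differences of 0.01 and 0.06 with overlapping groups, and GTF3C4 one of 0.06. GTF3C5 was at 30.9 and 30.5 against 30.2 and 27.3 FPKM (log2 difference -0.09, limma adjusted p = 0.53). GTF3C6, the smallest subunit, was at 4.77 and 5.26 against 6.30 and 5.48 FPKM, the largest difference of the complex at 0.20 (limma adjusted p = 0.305). MAF1, the repressor, was at 31.1 and 34.4 in shNC and 29.3 and 29.8 FPKM in shWDR43. Its log2 difference of -0.15 (interval -0.34 to 0.05, limma adjusted p = 0.316) did not pass.

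**Figure D3:**
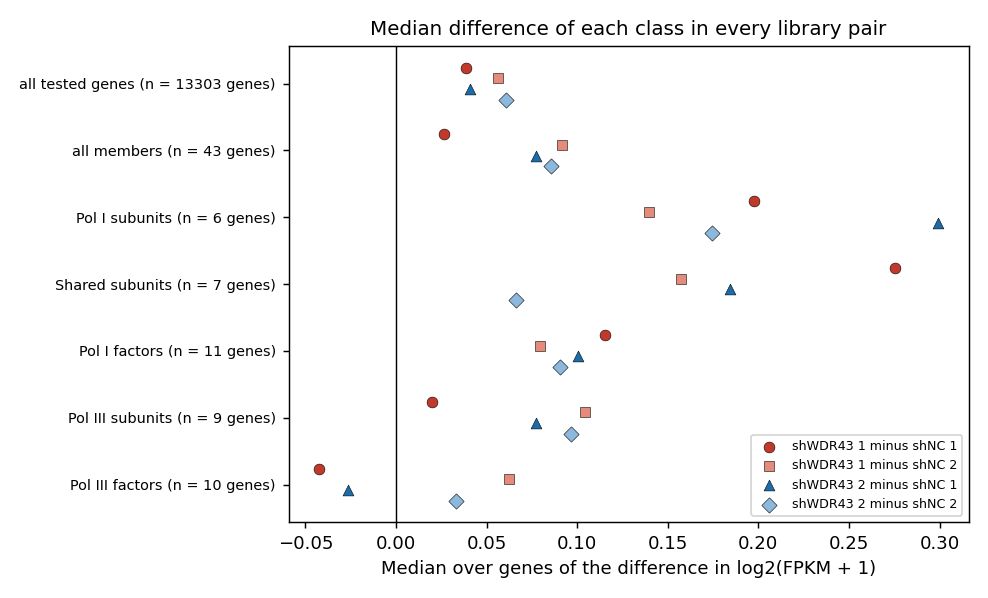
Median over genes of the difference in log2(FPKM + 1) for each class, with 1 point for each of the 4 pairs of a shWDR43 and a shNC library. Polymerase I subunits, shared subunits and polymerase I factors lie to the right of all tested genes in every pair. For shared subunits the margin is small in shWDR43 replicate 2 minus shNC replicate 2 (0.0664 against 0.0605). Polymerase III factors fall on both sides of 0.

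Set side by side, the median difference was 0.24 for polymerase I subunits and 0.17 for shared subunits, beside 0.05 over all tested genes. It was 0.09 for the 11 polymerase I factors, nucleolar factors included, 0.12 for polymerase III subunits and 0.04 for polymerase III factors. The shared class pools 2 subunits of polymerases I and III, with a median of -0.15, and 5 common to polymerases I, II and III, with a median of 0.40. Over the 4 library pairs the median of polymerase I subunits ran from 0.14 to 0.30 and that of shared subunits from 0.07 to 0.28. Polymerase I factors ran from 0.08 to 0.12, and all tested genes from 0.04 to 0.06. Polymerase III subunits ran from 0.02 to 0.10, and polymerase III factors from -0.04 to 0.06. The 4 pairs share libraries and are not independent, and no test of a difference between the classes was made. Without shNC replicate 2 the median of polymerase III subunits was 0.05 and that of polymerase III factors was -0.05, and without shNC replicate 1 they were 0.16 and 0.09. The members with an E-box in the window shown above had differences from -0.13 (POLR3E) to 0.32 (POLR1G), 5 positive and 2 negative. The 10 with the ETS-type motif ran from -0.22 to 0.42. POLR2K and NOLC1 are among the members with no window, so these values say nothing of motifs and calls.

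**Figure D4:**
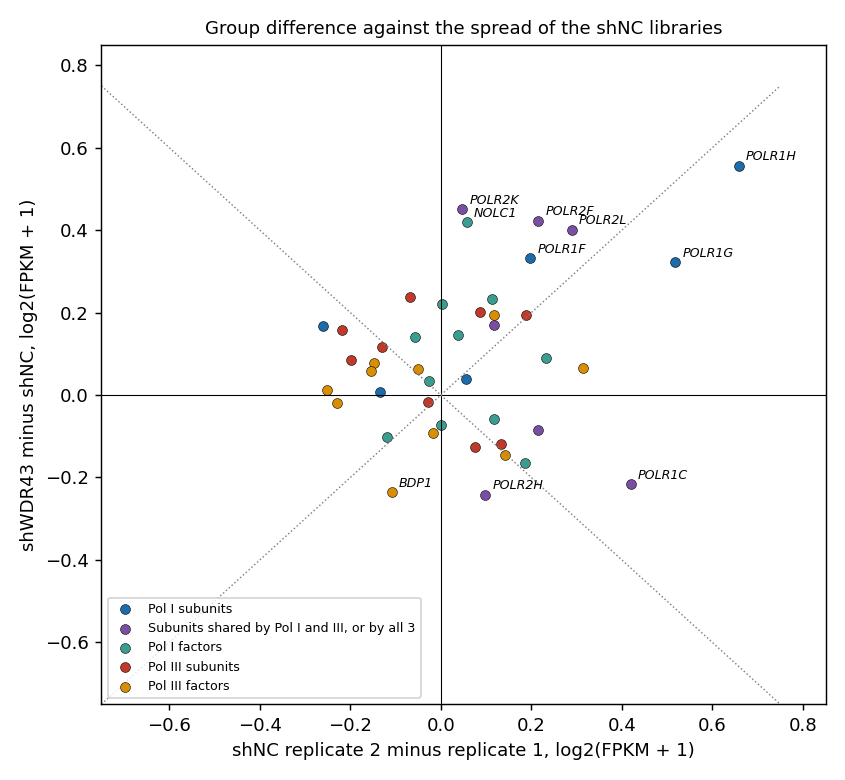
Difference between shWDR43 and shNC for each member against the difference between the 2 shNC libraries, both on the log2(FPKM + 1) scale. Dotted diagonals mark equal size, and POLR2K and NOLC1 lie far above them while POLR1H, POLR1G and POLR1C lie in the zone where the shNC spread is the larger.

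The spread of the control libraries was larger than the group difference for many members, about as often as over all tested genes. In 21 of 43 members (48.8%) the 2 shNC libraries differed by more than the groups did, against 47.3% of all tested genes. Leaving out shNC replicate 1 or 2 moved the difference by over 1.5 times, up or down, in 24 members each. Leaving out shWDR43 replicate 1 or 2 did so in 13 and 14. Changes of sign count as moves, and differences near 0 pass this bound easily. The share over all tested genes was not computed, so these counts show nothing particular to the members. The SD of the replicate difference over the members was 0.201 for shNC and 0.113 for shWDR43. Members with short transcripts tended to be lower in shNC replicate 1 than in replicate 2. Spearman's rho between transcript length and the shNC replicate difference was -0.42 over 43 members and -0.29 over 11567 genes with a length. For the difference between groups, rho was -0.10 and -0.08. These correlations are across genes of the same libraries, which are not independent replicates, and the part of transcript length in the results was not tested. In all, 18 members overlap a gene on the opposite strand with a mean of at least 1 FPKM, among them POLR1C, GTF3A, BRF1, TAF1D, GTF3C3 and MAF1, and their levels are uncertain for the same reason as that of POLR1G.

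Other genes of the pathway, outside the member list, were also compared, and their counts stand beside 6.26% called over all 13303 tested genes. Of 12 further basal factors and subunits of polymerase III, 1 rose and 0 fell, with a median difference of -0.09. SNAPC5, a small subunit of the complex that activates small nuclear RNA genes, was at 4.59 and 4.44 in shNC and 9.58 and 6.57 FPKM in shWDR43 (log2 difference 0.70, limma adjusted p = 0.0458). The SNAPC5 difference was 0.46 without shWDR43 replicate 1 and 0.94 without shWDR43 replicate 2, so its size leaned on shWDR43 replicate 1. It was 0.72 and 0.68 without shNC replicate 1 and 2. SNAPC5 did not pass under either scaling (0.0606 and 0.0588 by limma) or without the filter (0.158 by limma). It passed with the replicate block (0.0272 by limma). SNAPC1 had a difference of -0.23, and -0.36 without shNC replicate 1, which passed (limma adjusted p = 0.042), but -0.09 without shNC replicate 2 (limma adjusted p = 0.502).

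Of 16 chromatin and regulatory factors of ribosomal DNA, 1 rose and 0 fell. This was NPM3, a nucleoplasmin-family chaperone, at 31.7 and 37.2 in shNC and 48.6 and 48.0 FPKM in shWDR43 (log2 difference 0.48, limma adjusted p = 0.0344). The difference was 0.47 and 0.49 without shWDR43 replicate 1 and 2 (limma adjusted p = 0.0898 and 0.0659) and 0.42 and 0.41 under median-ratio and upper-quartile scaling (limma adjusted p = 0.0586 and 0.0511), so the call was lost with the difference near its size. Without the filter the limma adjusted p of NPM3 was 0.132, and with the replicate block, where it passed, 0.0432. Its difference was 0.37 and 0.59 without shNC replicate 1 and 2. SIRT7, a deacetylase that activates polymerase I, was at 16 and 16.1 in shNC against 19.1 and 19.4 FPKM and did not pass (limma adjusted p = 0.107). Of 5 partners of WDR43 in UTP-A, 0 changed by limma, with 1 at an unadjusted p below 0.05. UTP4 was nearest, at 22.3 and 21.9 in shNC and 29.1 and 26.7 FPKM in shWDR43 (log2 difference 0.32, limma adjusted p = 0.0641), and it passed without shNC replicate 1 or 2 (limma adjusted p = 0.0404 and 0.0378). It did not pass without shWDR43 replicate 1 or 2 (limma adjusted p = 0.488 and 0.195), under median-ratio or upper-quartile scaling (0.112 and 0.115 by limma) or with the replicate block (0.116 by limma). HEATR1 had a difference of 0.14. The 22 polymerase I and III transcripts that were looked for, such as RN7SK and RMRP, were not analysed here.

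The libraries' FPKM sums ran from 393582 to 413758, and the depth behind them is unknown. Genes with MT- symbols made up 25.5 to 26.8% of the sum in shNC and 23.9 to 24.6% in shWDR43. Epithelial keratins and EPCAM marked the cells as epithelial, with 6 of 9 listed intestinal epithelial markers at 1 FPKM or more in every library. VIL1, LGR5 and KRT20 stayed under 1 FPKM, and CDX2 was at 1.59 to 1.74 FPKM. These markers therefore do not establish the colorectal origin given by the label. The summed epithelial markers were at 1750 and 2070 in shNC and 2500 and 2440 FPKM in shWDR43. The keratins KRT8 (log2 difference 0.50, limma adjusted p = 0.048), KRT18 (0.44) and KRT19 (0.36) made up most of that sum, and KRT8 alone passed, while EPCAM (-0.07), CDH1 (-0.11) and CDX2 (-0.03) had differences below 0. The 3 listed leukocyte and 3 listed endothelial markers summed to less than 0.5 FPKM in every library, and COL1A1, at 5.69 to 7.80 FPKM, was the only one of 4 listed fibroblast markers at 1 FPKM or more. The part of these shifts in the results was not tested.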

How the data were processed

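The values analysed are the FPKM that the authors deposited for each library, a unit inferred from their range (TPM over some of the genes would look alike). The submitters' processing notes name HISAT2, RSEM, edgeR, Trimmomatic, FastQC and CASAVA 1.8 and the build GRCh38, without saying what each did. Annotation release and strand setting: not given in the sources used here. Per the labels' protocols, an Illumina TruSeq RNA kit was used on 1 ug of total RNA. Of 29286 identifiers, 29170 had a symbol, and coordinates come from GENCODE release 29. A blank entry per file was left out. Whole reads could not be recovered (the fullest 1% window of ratios between libraries held at most 0.96% of low genes), so intervals here cover only the spread between libraries.

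limma 3.58.1 in R 4.3.3 was fitted to log2(FPKM + 1) of 13303 genes that reached 1 FPKM in 2 or more libraries, with the group as the only term, trend and robust moderation and 2 residual degrees of freedom. P-values are two-sided, adjusted over all tested genes, with a threshold of 0.05. Fold changes on this scale understate the change of low genes. With 2 against 2 libraries, the smallest p of an exact permutation test is 0.333. The model was also run on simulated data, whose spread was drawn from the fit to these same libraries, so that run is no independent check.

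Values per library are given by a fixed rule for members past the threshold, for the 2 smallest p-values in each class and for 11 set genes, and for most other members besides. Of each list of other genes, the 2 with the smallest p-values are named. The members, lists and tests were chosen with earlier results of these data known. Alternatives were a pseudocount of 0.1, no filter, a filter at 5 FPKM, 2 scalings, non-robust moderation, a replicate block and the removal of each library in turn, where a single remaining library is taken to vary as the opposite group does. Transcript length is the median over a gene's protein-coding transcripts. Figures were made with Python 3.11.15 and matplotlib 3.10.9.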

Additional observations from a re-analysis of the deposited data

How the results depend on the processing

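With 833 of 13303 tested genes changed over all libraries, 17 changed without the filter on low values and 516 under median-ratio scaling, and leaving out a library gave 377 to 2586. The number of changed members, 2 over all libraries, was 0 without the filter, 0 under median-ratio scaling and 0 under upper-quartile scaling, and 1 to 9 with a library left out. It was 3 with the filter at 5 FPKM and 2 with a pseudocount of 0.1 or robust settings off. With the replicate block 563 genes and 0 members changed. The numbers are not stated to pair cultures, and the correlation of the replicate 1 minus replicate 2 differences between groups was -0.147 over genes. A crossed replicate block, added after the data were seen, called 1954 genes and 4 members.

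Median-ratio and upper-quartile scaling lowered the differences of genes as a whole, taking the median of all tested genes from 0.0459 to -0.0042 and -0.0134, and the class moves and sign changes under them are of about the size of that shift. Class medians moved by more than the SD over library pairs under scaling: polymerase I factors to 0.0356 (median-ratio) and 0.0258 (upper-quartile), polymerase III subunits to 0.0643 and 0.0545, and polymerase III factors to -0.0216 and -0.0321. With a library left out the medians ran from 0.15 to 0.27 for polymerase I subunits, 0.11 to 0.23 for shared subunits, 0.0479 to 0.11 for polymerase I factors, 0.0487 to 0.16 for polymerase III subunits and -0.0484 to 0.0921 for polymerase III factors.

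Signs turned only for members with small differences that did not pass. Under median-ratio scaling these were POLR1A (-0.0409), POLR1E (-0.017), TAF1B (-0.0206) and GTF3C2 (-0.0437), and under upper-quartile scaling POLR1A (-0.05), POLR1E (-0.0275), TAF1B (-0.0307), GTF3A (-0.0032), GTF3C2 (-0.0542) and GTF3C3 (-0.0099). With a library left out the range crossed 0 for TTF1 (-0.0262 to 0.20), BRF1 (-0.13 to 0.0956), GTF3A (-0.0905 to 0.22), POLR1A (-0.06 to 0.0751), POLR1D (-0.19 to 0.021), UBTF (-0.12 to 0.0017), POLR3B (-0.0156 to 0.19), GTF3C2 (-0.11 to 0.14), GTF3C3 (-0.0216 to 0.14), POLR3F (-0.11 to 0.0716), POLR1E (-0.0271 to 0.11), TAF1B (-0.0082 to 0.0768) and TAF1C (-0.23 to 0.025). The cause was not tested. The 4 genes called over all libraries (POLR2K, NOLC1, SNAPC5 and NPM3) kept the call in 22 of 44 values under these settings and lost it in 22. The 47 other genes named kept direction and side of the threshold in 468 of 512, passed in 17 and changed sign in 27.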
